A study of Mus musculus with 97 samples.

Results

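The aminoacyl-tRNA synthetases and the scaffold of their complex were followed as a family of 40 genes among the 51368 genes of the deposited table. Members were chosen by name alone: every symbol made of 1 letter, "ars" and an optional 1 or 2, plus Eprs, Farsa, Farsb, Aimp1, Aimp2 and Eef1e1. By textbook knowledge, 18 of the 40 encode cytosolic enzymes or subunits, 17 encode mitochondrial enzymes, 2 (Gars and Kars) serve both compartments from the same gene, and 3 (Aimp1, Aimp2 and Eef1e1) encode scaffold proteins.

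The study gave C57BL/6 mice chow with or without an inhibitor of prostaglandin synthesis for 3 weeks, and some of them tryptophan, and sequenced RNA of whole heart or flushed jejunum from 97 animals in 14 groups. Naproxen inhibits both cyclooxygenases and celecoxib is selective for cyclooxygenase-2. All mice were 11 weeks old at the end, and the 4 experiments used separate cohorts. Heart libraries were made from poly-A RNA, and jejunum libraries from ribosome-depleted total RNA, so levels were not compared between the tissues.

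In experiment 1 (heart, no injections), 5 female and 5 male controls on plain chow stood beside 5 females on 1323 ppm naproxen and 5 males on 1610 ppm naproxen; sex and dose therefore cannot be told apart. Experiments 2 to 4 used females, and every mouse in them was injected in the last week, daily and intraperitoneally, with PBS or with 50 mg/kg tryptophan in PBS. Experiment 2 (heart) had 8 controls, 7 mice on 1323 ppm naproxen and 8 on naproxen with tryptophan. Experiment 3 (heart) had 8 controls and 8 mice given tryptophan on plain chow. Experiment 4 (jejunum) had 8 controls, 8 mice on 550 ppm celecoxib, 7 on 1323 ppm naproxen, 8 given tryptophan and 7 given naproxen with tryptophan. Each library came from its own mouse.

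Aminoacyl-tRNA synthetases join each amino acid to its transfer RNA, so that the ribosome can read the code. Cytosolic and mitochondrial translation mostly use separate enzymes from separate nuclear genes, and several cytosolic enzymes sit in a multisynthetase complex held by the scaffold proteins. When amino acids run short, the kinase GCN2 raises the transcription factor ATF4, whose known targets include many cytosolic synthetase genes, and Wars, the cytosolic tryptophanyl enzyme, is also a classical interferon-gamma target.

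RefSeq promoter windows (GRCm38.p6, 250 bases before to 50 after each start) were matched for 30 of the 40 members. The 4 windows shown are those of the members that hold TGATGCAA on either strand, a form of the C/EBP-ATF response element that ATF4 is known to bind; the matched bases are in capitals, as TGATGCAA or as its reverse complement TTGCATCA. They lie at chr8:111033592-111033891 (plus strand), chr13:49681880-49682179 (plus strand), chr15:11399609-11399908 (minus strand) and chr4:129189653-129189952 (plus strand).
Aars: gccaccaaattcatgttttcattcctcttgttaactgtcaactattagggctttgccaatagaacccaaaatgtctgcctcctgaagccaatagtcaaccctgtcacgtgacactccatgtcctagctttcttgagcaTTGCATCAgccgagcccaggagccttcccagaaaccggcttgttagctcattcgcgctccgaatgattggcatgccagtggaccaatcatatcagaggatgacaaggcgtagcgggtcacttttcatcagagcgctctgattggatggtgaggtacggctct
Iars: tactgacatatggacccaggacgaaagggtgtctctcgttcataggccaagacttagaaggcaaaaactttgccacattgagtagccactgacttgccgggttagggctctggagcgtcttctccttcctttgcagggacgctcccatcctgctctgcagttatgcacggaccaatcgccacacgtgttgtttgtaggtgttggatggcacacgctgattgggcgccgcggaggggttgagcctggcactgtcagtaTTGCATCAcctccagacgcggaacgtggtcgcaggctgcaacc
Tars: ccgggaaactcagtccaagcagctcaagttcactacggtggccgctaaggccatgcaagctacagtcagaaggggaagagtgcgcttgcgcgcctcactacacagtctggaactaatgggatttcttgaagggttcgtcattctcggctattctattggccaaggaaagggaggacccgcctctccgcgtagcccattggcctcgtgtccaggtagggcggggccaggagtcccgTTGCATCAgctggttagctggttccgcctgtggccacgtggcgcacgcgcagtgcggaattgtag
Yars: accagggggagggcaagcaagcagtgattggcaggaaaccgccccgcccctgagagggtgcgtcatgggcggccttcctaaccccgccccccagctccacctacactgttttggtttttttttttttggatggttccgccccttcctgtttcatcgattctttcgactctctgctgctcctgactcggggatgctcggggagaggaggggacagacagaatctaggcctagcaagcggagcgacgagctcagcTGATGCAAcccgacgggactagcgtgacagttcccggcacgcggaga

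Counting from base 251 of the window, the matched run began 112 bases upstream in Aars and 15 upstream in Tars, and 7 downstream in Iars and 3 downstream in Yars. The run was present in 4 of the 11 cytosolic members with a window, in 0 of 2 dual members, in 0 of 14 mitochondrial members and in 0 of 3 scaffold members. It was present in 0.895% of all 32851 windows. TGATGCAA was chosen for display after the counts of 7 motifs were seen. Of the others, the broader TGATGNAA, which contains it, matched the same 4 members and Gars, and 3.97% of all windows; TGATGNAAN matched those 5 members and 3.95% of windows. TGATG alone matched 7 of 11 cytosolic, 1 of 2 dual and 4 of 14 mitochondrial members, and 39.3% of windows. CACGTG, the E-box bound by MYC and related factors, matched Aars, Farsb, Iars and Tars among the cytosolic members and Ears2 among the mitochondrial ones, and 7.15% of windows. ACTTCCGG matched 2 of 11 cytosolic members, 1 of 14 mitochondrial and 1 of 3 scaffold members, and 3.89% of windows. TTCNNNGAA matched 1 member in each of the 4 classes, and 8.3% of windows. All motifs were searched on both strands, and a match describes letters only.

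Library totals, in units of 1000000 counts (M), ran from 26.3 to 32.5 M in experiment 1, from 28.4 to 67.1 M in experiment 2, from 41.4 to 76.4 M in experiment 3, and from 10.1 to 28.5 M in the jejunum. All 40 members passed the low-count filter in every comparison. Levels are given as CPM, the counts scaled to a library of 1000000 after trimmed-mean (TMM) scaling. A difference is a log2 ratio from edgeR's quasi-likelihood fit across all genes, and a gene was called where its Benjamini-Hochberg adjusted p was below 0.05. The tissues carried their defining markers: cardiomyocyte markers were abundant in every heart library and enterocyte markers in every jejunum library. In bulk tissue, fewer cells of a type and less RNA per cell cannot be told apart.

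In untreated animals the cytosolic enzymes were the more abundant class per kilobase of transcript. Their median control level in CPM per kilobase was 11.4 in females and 11.8 in males of experiment 1, 12.4 in experiment 2, 12.8 in experiment 3 and 13.4 in jejunum. The mitochondrial medians on the same scale were 5.8, 5.23, 5.05, 6.99 and 5.29. Those medians are over members of the group means. Taken within each animal instead, the ratio of the cytosolic to the mitochondrial median averaged 1.88 ± 0.292 and 2.24 ± 0.23 in females and males of experiment 1 (SD, n = 5 each). It averaged 2.3 ± 0.112 in experiment 2, 1.88 ± 0.0747 in experiment 3 and 2.61 ± 0.257 in jejunum (SD, n = 8 each). With all exons of a gene merged as its length, the scale used first and replaced after its values were seen, the mean within-animal ratios were 2.74, 3.07, 2.21, 2.02 and 3.3 in the same order.

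Among the heart members, Lars2, the mitochondrial leucyl enzyme, stood highest per kilobase in every control group, at 154 ± 13.7 CPM per kilobase in females of experiment 1 (SD, n = 5), 171 ± 12.4 in males (SD, n = 5), 90.9 ± 22.5 in experiment 2 (SD, n = 8) and 299 ± 118 in experiment 3 (SD, n = 8). Next came Aimp1, a scaffold protein, and Kars, the lysyl enzyme of both compartments. Their levels were within 1 SD of each other in experiments 1 and 3, as with Aimp1 at 36.7 ± 3.67 and Kars at 36.5 ± 1.5 CPM per kilobase in experiment 3 (SD, n = 8). In experiment 2, Kars was at 38.8 ± 3.58 and Aimp1 at 31.7 ± 4.63 CPM per kilobase (SD, n = 8). The mitochondrial methionyl and tryptophanyl enzymes were at the low end, with Mars2 at 1.35 ± 0.167 and Wars2 at 1.42 ± 0.146 CPM per kilobase in experiment 3 (SD, n = 8). Sars2 and Pars2 shared that end in experiment 1. The place of Aimp1 depended on the length used. With merged exons it was at 5.87 CPM per kilobase in females of experiment 1, below Gars at 17.6, Nars at 14.9 and Kars at 13. Lars2 was still the highest there, at 54.1.

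In the jejunum the order at the top was different in membership: Nars, the cytosolic asparaginyl enzyme, stood at 51.6 ± 8.05 CPM per kilobase and Qars, the glutaminyl enzyme, at 43.3 ± 5.18 (SD, n = 8). Aimp1 followed at 38.4 ± 5.75 and Kars at 26 ± 4.47 CPM per kilobase (SD, n = 8), and Lars2 at 23.1 was the highest mitochondrial member. Nars and Qars differed by about 1 SD, and Qars and Aimp1 by less. Wars2 at 1.59 ± 0.272 and Mars2 at 1.82 ± 0.174 CPM per kilobase were again the lowest (SD, n = 8). With merged exons Nars and Qars stayed at the top, at 32.5 and 18.5 CPM per kilobase. Aimp1 was then at 7.74, below Gars at 18.2 and Rars at 15.6, and Sars2 at 1.37 was lower than Mars2.

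**Figure D1:**
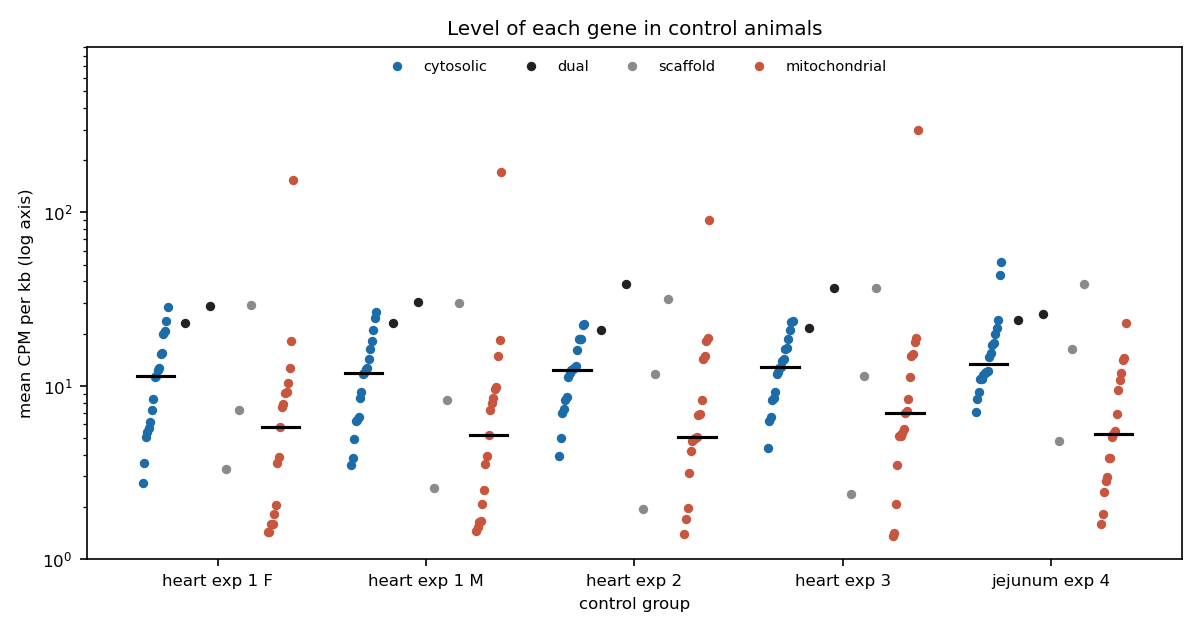
Control levels of the 40 members, as mean TMM-scaled CPM per kilobase of transcript on a log axis, by class and control group, with bars at the cytosolic and mitochondrial medians. The mitochondrial members centre below the cytosolic ones in each group, with Lars2 far above its class in the hearts.

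The cytosolic-minus-mitochondrial balance was summarised per animal as the mean log2 CPM of the 18 cytosolic members minus that of the mitochondrial members with Lars2 left out, as a description with no test. In experiment 2 it was 1.032 ± 0.0402 in controls (SD, n = 8), 1.022 ± 0.0934 on naproxen (SD, n = 7) and 0.944 ± 0.0514 on naproxen with tryptophan (SD, n = 8). In experiment 3 it was 0.98 ± 0.0592 in controls and 0.991 ± 0.0452 with tryptophan (SD, n = 8 each). In experiment 1 females it was 1.184 ± 0.0238 in controls and 1.274 ± 0.0917 on naproxen, and in males 1.19 ± 0.0258 and 1.18 ± 0.0205 (SD, n = 5 each). In the jejunum it was 1.574 ± 0.0815 in controls (SD, n = 8), 1.643 ± 0.0462 on celecoxib (SD, n = 8), 1.549 ± 0.109 on naproxen (SD, n = 7), 1.576 ± 0.117 with tryptophan (SD, n = 8) and 1.641 ± 0.128 with both (SD, n = 7). The group means in the jejunum differed by about the spread between animals.

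No member was called in any of the 16 comparisons by edgeR. The counts that follow are therefore of members with an unadjusted p below 0.05, each set beside the same count over all genes.

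In the hearts of experiment 1, naproxen was compared with plain chow within each sex. In females 0 of 40 members were called by edgeR, DESeq2 or limma voom, against 0.0132% of the 15152 genes tested; 1 member had an unadjusted p below 0.05, against 7.14% of all genes. That member was Eef1e1, a scaffold protein of the multisynthetase complex (chr13:38644207-38659058). Eef1e1 was at 7.26, 6.96, 9.63, 9.8 and 8.74 CPM in the 5 female controls and at 6.58, 7.62, 6.13, 6.29 and 6.58 CPM in the 5 females on naproxen. The groups overlapped, and the log2 difference was −0.35 (SE 0.11, edgeR adjusted p = 0.54). It was −0.26 without control replicate 4, the highest control.

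In males 0 members were called by any of the 3 tools, against 0% of all genes, and 3 members had an unadjusted p below 0.05, all higher, against 7.68% of all genes. The 2 members whose groups did not overlap were the isoleucyl enzymes of the cytosol (Iars) and of mitochondria (Iars2); both were singled out after their values were seen. Groups did not overlap for 5% of the members and for 3.1% of all genes in that comparison. Iars was at 52.9, 53.6, 53.7, 54.8 and 48.2 CPM in control males and at 58.7, 58.3, 60.9, 60.5 and 67.3 CPM on naproxen, a log2 difference of 0.22 (SE 0.09, edgeR adjusted p = 0.558). Iars2 was at 101, 103, 95.3, 105 and 98.6 CPM in control males and at 112, 114, 111, 110 and 112 CPM on naproxen, a log2 difference of 0.15 (SE 0.07, edgeR adjusted p = 0.65). With library totals in place of TMM scaling, the Iars2 difference was −0.02. That scaling shifted the median of all genes by −0.17 in males, and the median of the 40 members from 0.04 to −0.13. It also shifted the all-gene median by −0.221 in the comparison of the sexes and by −0.12 for tryptophan added to naproxen in experiment 2.

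An interaction term compared the naproxen difference of males with that of females. For it, 0 members were called by the 3 tools, against 0% of all genes, and 1 (Eef1e1, higher in males minus females, edgeR adjusted p = 0.759) had an unadjusted p below 0.05, against 5.05% of all genes. In experiment 2 females, 0 members were called for naproxen, against 0% of all genes, and 0 had an unadjusted p below 0.05, against 3.63% of all genes. Pooled over experiments 1 and 2, 0 members were called, against 0.089% of 15738 genes, and 1 had an unadjusted p below 0.05, against 7.1% of all genes. For the difference between experiment 2 and the females of experiment 1, 0 members were called, against 0.00618% of 16174 genes, and 1 had an unadjusted p below 0.05, against 3.49% of all genes. DESeq2 and limma voom also called 0 members in these 4 fits.

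**Figure D2:**
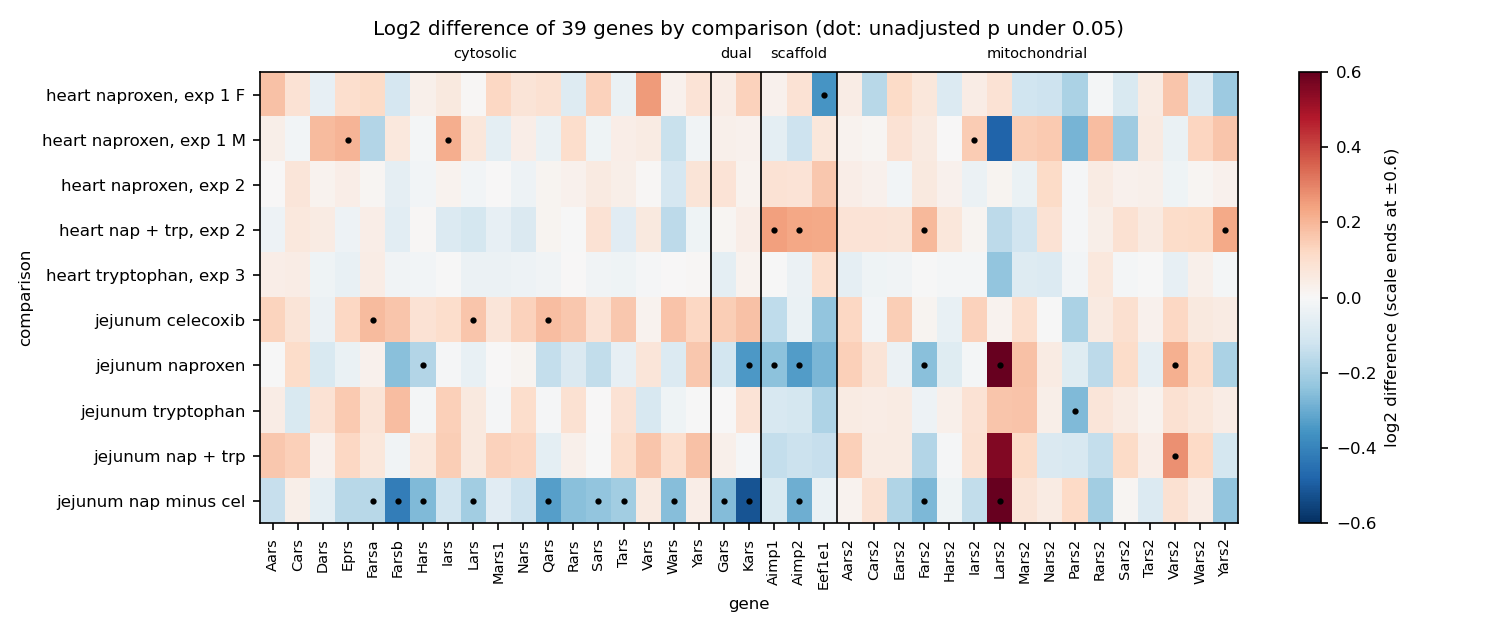
Log2 difference of 39 of the 40 members (columns, by class) in 10 comparisons (rows), red for higher and blue for lower, with a dot where the unadjusted p was below 0.05. The colour scale ends at ±0.6, which Lars2 passes in the jejunum; no member shown passed the adjusted threshold, and the row of naproxen minus celecoxib holds 13 dots.

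Naproxen with tryptophan gave the hearts' lowest adjusted p values. Against controls, 0 members were called by edgeR, which called 0.255% of 16085 genes, and 0 by limma voom. DESeq2 called 2, Yars2 and Aimp2, among 477 genes in all. 4 members had an unadjusted p below 0.05, all higher, against 17.2% of all genes. All 3 scaffold members were higher, with a median log2 difference of 0.23, as were 13 of 17 mitochondrial members, with a median of 0.08, while 7 of 18 cytosolic members were higher, with a median of −0.03. Over all genes 49% were higher, and the median was 0.00. With library totals in place of TMM, 10 of the 40 members were higher instead of 25, so the counts of higher members depend on the scaling. The median of the 40 was −0.046 with library totals and 0.037 with TMM. That of all genes was −0.089 and −0.005, a move of −0.08, so the members stayed above it.

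Yars2, the mitochondrial tyrosyl enzyme (chr16:16302965-16309640), had a lowest, median and highest level of 11.5, 12.6 and 14.8 CPM in controls, of 11.9, 13.1 and 14.2 CPM on naproxen, and of 13.8, 14.8 and 17.3 CPM on naproxen with tryptophan. All 8 animals given both lay above the control median, though the groups overlapped. The log2 difference from controls was 0.23 (SE 0.06, edgeR adjusted p = 0.108), and between 0.19 and 0.25 with each library left out.

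Aimp2, a scaffold protein (chr5:143902704-143909847), had a lowest, median and highest level of 13.1, 13.9 and 14.8 CPM in controls, of 11.7, 14.3 and 17 CPM on naproxen, and of 13.6, 16.7 and 18.6 CPM on both. 7 of 8 animals lay above the control median, and the log2 difference was 0.23 (SE 0.07, edgeR adjusted p = 0.118). Fars2, the mitochondrial phenylalanyl enzyme, differed by 0.20 (edgeR adjusted p = 0.147), and Aimp1 by 0.25 (edgeR adjusted p = 0.233). Proliferation genes were higher in 16 of 16 in the same comparison, with a median log2 difference of 0.45. Of 8 tested neutrophil markers 7 were higher, with a summed level of 1.75 to 78.9 CPM in the animals given both and 3.52 to 11 CPM in controls. The part of either in the members' differences was not tested.

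For tryptophan added to naproxen in experiment 2, 0 members were called by the 3 tools, against 0.0933% of all genes, and 3 had an unadjusted p below 0.05, all higher, against 9.8% of all genes. The Yars2 difference was 0.20 on the log2 scale (edgeR adjusted p = 0.362). This comparison and the previous one share the animals given both. Tryptophan on plain chow in experiment 3 gave 0 members called by the 3 tools, against 0% of all genes, and 0 with an unadjusted p below 0.05, against 2.9% of all genes. 15 of 17 mitochondrial and 12 of 18 cytosolic members were lower there, with a median of −0.02 for each class. With library totals the median of the 40 members was 0.025, and 33 of 40 were higher. That scaling also moved the median of all genes from 0.003 to 0.044, so the members stayed below it.

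**Figure D3:**
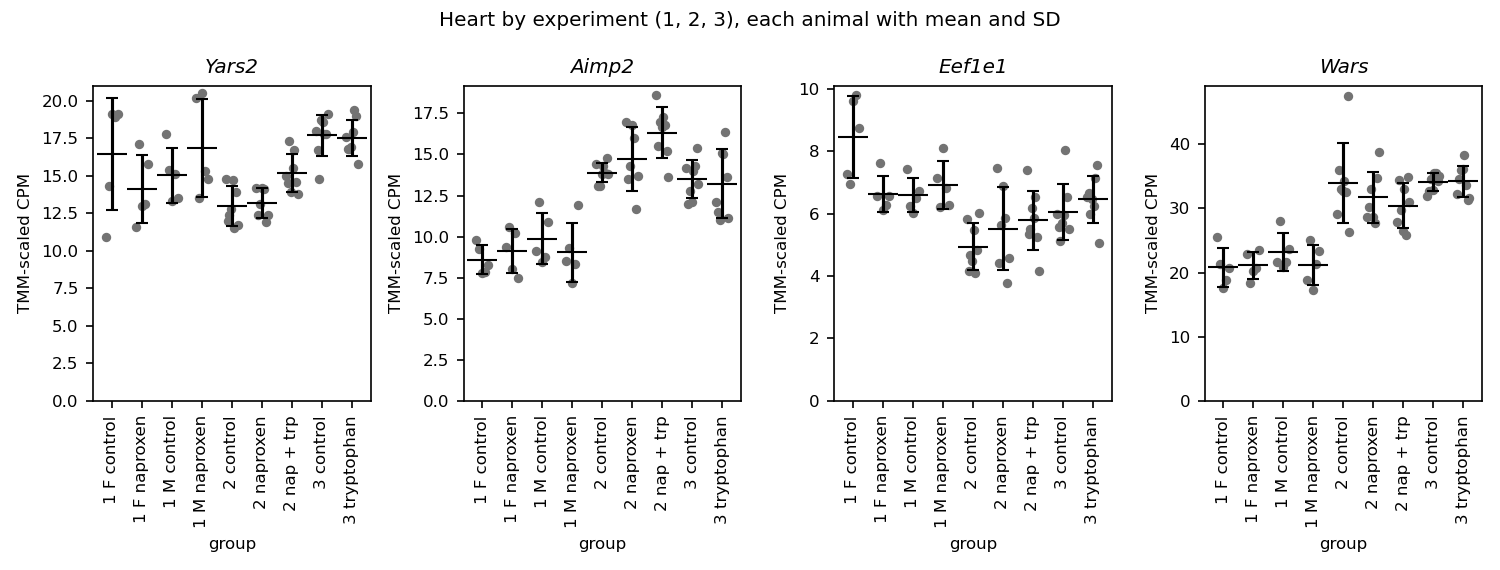
TMM-scaled CPM of Yars2, Aimp2, Eef1e1 and Wars in every heart, by experiment (1, 2 or 3) and group, with mean and SD. Yars2 and Aimp2 sit higher in the animals given naproxen with tryptophan than in controls of experiment 2, with overlap.

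The jejunum gave the family's lowest adjusted p, between the 2 inhibitors. With naproxen minus celecoxib, 0 members were called by edgeR, against 0% of 17185 genes. DESeq2 called 2 (Kars and Qars) among 291 genes in all, and limma voom called 1 (Kars), the only gene it called. 12 members were lower and 1 higher at an unadjusted p below 0.05, 32.5% of the 40, against 18.7% of all genes. Of 18 cytosolic members 15 were lower, with a median log2 difference of −0.17, and of 17 mitochondrial members 8 were lower, with a median of 0.01. All 10 class II enzymes that work in the cytosol were lower, and so were all 11 members of the multisynthetase complex. The 3 cytosolic members that were higher were class I enzymes outside the complex, with Vars the highest at 0.05. Over all genes the median was 0.01 and 51% were higher.

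Kars (chr8:111993443-112011323) had a lowest, median and highest level of 41, 51.4 and 64.7 CPM in controls, of 44.8, 60 and 72.6 CPM on celecoxib, and of 26.6, 40.7 and 57.1 CPM on naproxen. With tryptophan these were 45.6, 55.2 and 64.9 CPM, and with naproxen and tryptophan 36.4, 53.4 and 62.3 CPM. All 7 naproxen animals lay below the celecoxib median, and the groups overlapped. The log2 difference, naproxen minus celecoxib, was −0.52 (SE 0.10, edgeR adjusted p = 0.0643).

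Within the 4 dissection batches the Kars difference was −0.50, −0.49, −0.46 and −0.78, the last from 1 naproxen animal. It ran from −0.59 to −0.46 with each library left out. In those 15 fits Kars was called in 4, Qars in 1 and Fars2 in 1, without celecoxib replicate 7 or without naproxen replicate 2, 3 or 6. Leaving a library out moved the count over all genes from 0 to as many as 498.

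Qars (chr9:108507706-108515941) had a lowest, median and highest level of 121, 136 and 159 CPM on celecoxib, of 85.8, 110 and 131 CPM on naproxen and of 102, 122 and 147 CPM in controls. The log2 difference between the inhibitors was −0.33 (SE 0.09, edgeR adjusted p = 0.12), and −0.11, −0.36, −0.46 and −0.44 within the batches. Hars, the cytosolic histidyl enzyme, was at 26.7, 31.2 and 34.6 CPM on celecoxib and at 19.9, 26.4 and 30.9 CPM on naproxen, a log2 difference of −0.26 (SE 0.08, edgeR adjusted p = 0.132). Farsb, a subunit of the cytosolic phenylalanyl enzyme, differed by −0.42 (edgeR adjusted p = 0.145).

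Several cell type lists and pathways moved beside this contrast, and no gene of them was called. Adipocyte markers were lower in 7 of 7, with a summed level of 22.1 to 45.7 CPM on naproxen and 46 to 126 CPM on celecoxib. Paneth cell markers were lower in 8 of 8, goblet cell markers in 7 of 7 and proliferation genes in 16 of 16. ATF4 targets other than the synthetases were lower in 19 of 28, with a median of −0.20. Interferon-gamma targets were lower in 13 of 18, with a median of −0.37, and B and plasma cell markers were higher in 8 of 8. The part of these lists in the members' differences was not tested.

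Sequencing depth also moved with the cytosolic members inside groups. Over the 38 jejunum libraries, after group and batch means were removed, the mean of the cytosolic members followed the log2 library total with Pearson's r = 0.598 and Spearman's rho = 0.633 (permutation p = 0.00011 and 3e-05, adjusted 0.00308 and 0.00126 over 84 relations). It was 0.578 without the 2 libraries farthest from the median total. For Kars r was 0.522 (rho 0.575, permutation p = 0.00073 and 0.00028, adjusted 0.00876 and 0.00554, r = 0.625 without 2). For the mitochondrial members with Lars2 left out r was 0.267 (rho 0.309, permutation p = 0.107 and 0.061, adjusted 0.257 and 0.165). Of the other members tried, Eprs followed the total with r = 0.668 and rho 0.691 (adjusted permutation p = 0.00042 and 0.00084). Aars, Rars2 and Lars2 were at r = 0.399, 0.412 and −0.421 (adjusted permutation p = 0.0489, 0.0432 and 0.0422). For rho their adjusted permutation p was 0.0873, 0.0673 and 0.082. Vars was at r = −0.06. In the hearts, no adjusted permutation p with the total was below 0.05. The permutations shuffled values with group and batch means already removed, as if all 38 libraries were free to vary. Only 30 residual degrees of freedom remain, so these p values are somewhat too small, and those just below 0.05 may not hold. Median totals were 19.6 M on celecoxib and 21.4 M on naproxen. With the log2 library total as a covariate, a fit added after this relation was seen, edgeR called Kars (−0.55) and Qars (−0.35), among 196 genes in all.

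**Figure D4:**
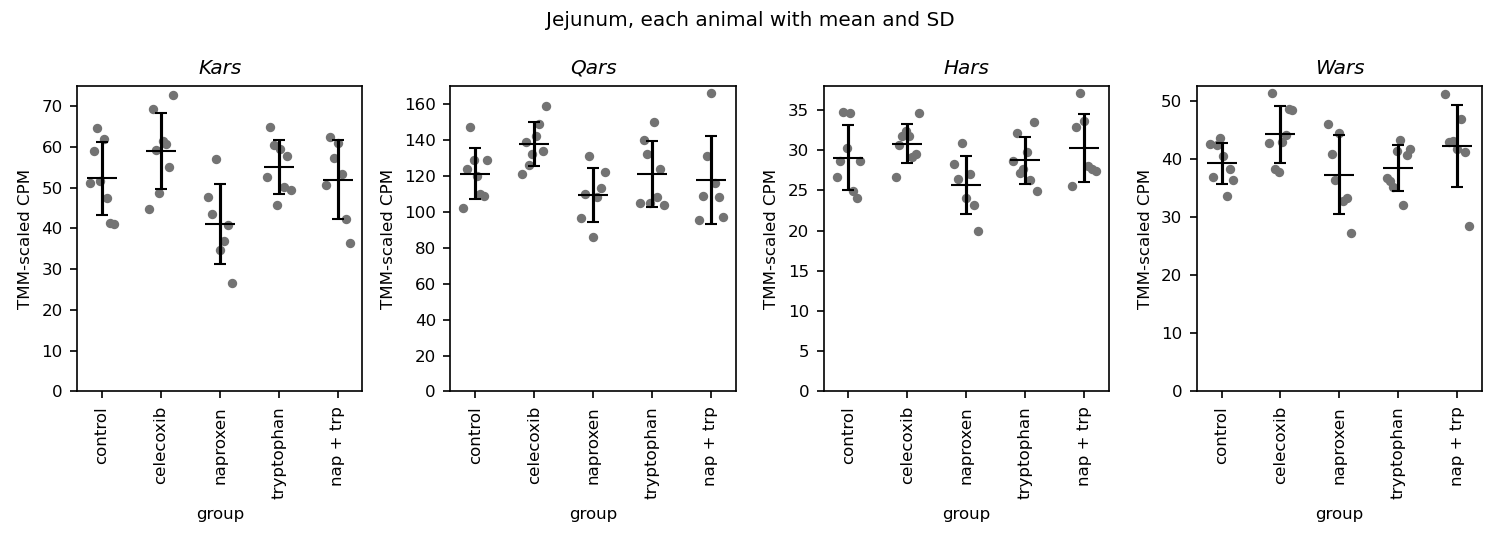
TMM-scaled CPM of Kars, Qars, Hars and Wars in every jejunum animal, by group, with mean and SD. The naproxen animals have the lowest mean of the 5 groups in each panel, and their range overlaps that of the others.

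Against controls, celecoxib gave 0 members called by the 3 tools, against 0% of all genes, and 3 with an unadjusted p below 0.05, all cytosolic and higher, against 4.37% of all genes. Of 18 cytosolic members 17 were higher, with a median log2 difference of 0.13, and 0 of 3 scaffold members were higher, with a median of −0.15. Over all genes 49.1% were higher, with a median of −0.003. The cytosolic members moved together across jejunum animals (median pairwise r 0.47), so 17 of 18 does not count independent results. Farsa, the other phenylalanyl subunit, was at the top of the cytosolic members at 0.19 (SE 0.08, edgeR adjusted p = 0.957).

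Naproxen against controls gave 0 members called by the 3 tools, against 0.0116% of all genes; 2 members were higher and 5 lower at an unadjusted p below 0.05, against 16% of all genes. Kars differed by −0.34 (SE 0.10, edgeR adjusted p = 0.174), and 6 of 7 animals were below the control median. All 3 scaffold members were lower, with a median of −0.28, Aimp2 at −0.33 (edgeR adjusted p = 0.229) and Aimp1 at −0.24 (edgeR adjusted p = 0.23). The cytosolic median was −0.04 and the mitochondrial −0.01. Over all genes 53.3% were higher, with a median of 0.02. Both inhibitors are compared with the same controls here.

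Tryptophan alone gave 0 members called by the 3 tools, against 0% of all genes, and 1 with an unadjusted p below 0.05, lower, against 2.65% of all genes. Naproxen with tryptophan gave 0 called by the 3 tools, against 0% of all genes, and 1 with an unadjusted p below 0.05, higher, against 5.98% of all genes. Tryptophan on top of naproxen gave 0 called by the 3 tools, against 0% of all genes, and 2 with an unadjusted p below 0.05, Kars and Hars, against 3.66% of all genes. In that comparison 18 of 18 cytosolic members were higher, with a median of 0.13, against 49.6% of all genes. Kars differed by 0.33 and Hars by 0.24 (edgeR adjusted p = 0.996 for both). It shares the naproxen animals with the contrast between the inhibitors. The naproxen by tryptophan interaction gave 0 called by the 3 tools, against 0% of all genes, and 1 with an unadjusted p below 0.05 (Hars at 0.25), against 3.4% of all genes.

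The tryptophanyl enzymes charge the transfer RNA of the amino acid that was injected. Wars (cytosolic, chr12:108860030-108894174) had a lowest, median and highest level of 32, 34.5 and 35.6 CPM in the control hearts of experiment 3 and of 31.3, 34.1 and 38.3 CPM with tryptophan. The log2 difference was 0.00 (SE 0.05, edgeR adjusted p = 1). In the jejunum it was at 33.6, 39.4 and 43.6 CPM in controls and at 32.1, 38.7 and 43.3 CPM with tryptophan, a difference of −0.02 (SE 0.09, edgeR adjusted p = 0.999). Interferon-gamma targets were lower in 18 of 18 in that jejunum comparison, with a median of −0.37 and none called. Over all genes 49.3% were higher there.

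Wars2 (mitochondrial, chr3:99141068-99239186) was at 5.22, 6.25 and 7.14 CPM in the control hearts of experiment 3 and at 5.72, 6.26 and 7.33 CPM with tryptophan, a log2 difference of 0.03 (SE 0.07, edgeR adjusted p = 1). In the jejunum it was at 5.07, 6.94 and 8.51 CPM in controls and at 5.47, 7.75 and 8.14 CPM with tryptophan, a difference of 0.07 (SE 0.11, edgeR adjusted p = 0.999). In experiment 2 hearts given naproxen with tryptophan, Wars differed from controls by −0.16 (edgeR adjusted p = 0.408) and Wars2 by 0.12 (edgeR adjusted p = 0.316). Neither enzyme passed the threshold in any comparison.

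Lars2 (chr9:123366927-123462666) spanned a wide range between animals and is described outside the rule for named members, after its values were seen. In the control hearts of experiment 3 its lowest, median and highest levels were 868, 1010 and 2270 CPM, and with tryptophan 714, 1010 and 1060 CPM. The 2270 CPM animal, control replicate 7, also had 43800 CPM of the ribosomal RNA gene CT010467.1, where the control median was 5200 CPM. Without it the Lars2 difference of −0.24 was −0.07. In experiment 1 males on naproxen Lars2 was at 561, 540, 470, 105 and 716 CPM, and the difference of −0.48 was −0.23 without the animal at 105 CPM.

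In the jejunum, Lars2 ran from 50 to 366 CPM on naproxen, from 48.3 to 410 CPM on naproxen with tryptophan and from 60.7 to 153 CPM in controls. The naproxen difference of 0.87 (edgeR adjusted p = 0.211) was 0.57 without naproxen replicate 4, and the difference of 0.55 with both was 0.11 without its replicate 7. Against celecoxib the naproxen difference was 0.84 (edgeR adjusted p = 0.157).

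**Figure D5:**
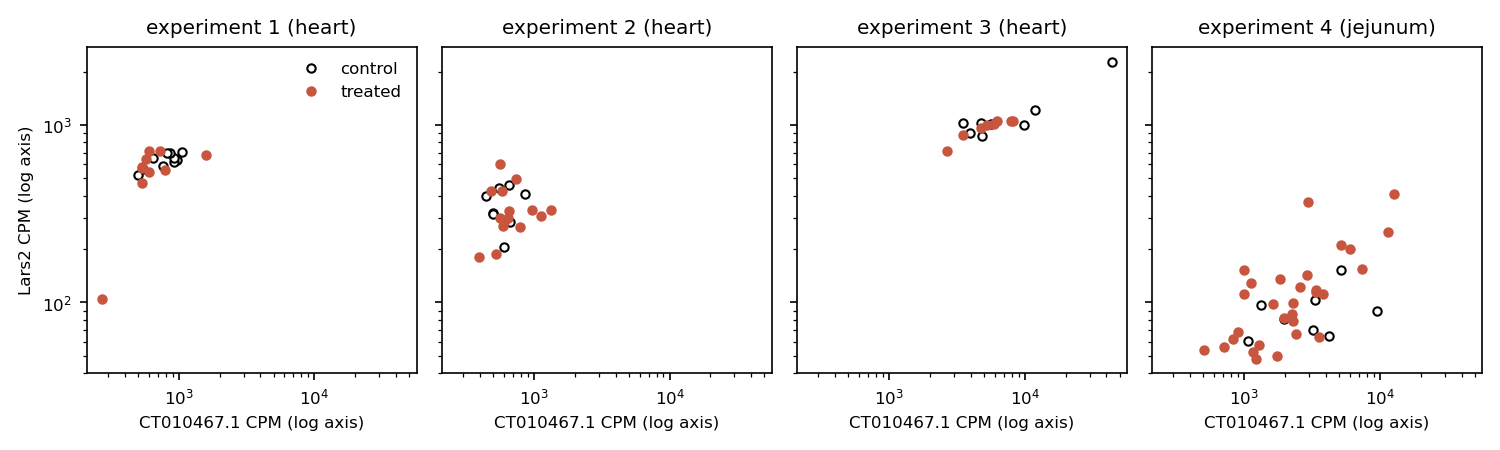
Lars2 against the ribosomal RNA gene CT010467.1, both in TMM-scaled CPM on log axes, with each animal a point and a panel for each experiment; open circles are controls and filled circles treated mice. The experiment 3 control at 2270 CPM of Lars2 is also the library with 43800 CPM of CT010467.1.

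After group and batch means were removed, Lars2 followed CT010467.1 across animals of experiment 3 with r = 0.925 (rho 0.871, permutation p = 1e-05 and 6e-05, the first being the smallest the permutations can give, adjusted 0.00042 and 0.00168 over 84 relations, n = 16). It was 0.844 without the 2 libraries farthest from the median. In experiment 1 r was 0.651 and rho 0.734 (adjusted permutation p = 0.0337 and 0.00554, n = 20). In experiment 2 r was 0.182 and rho 0.207 (adjusted permutation p = 0.68 and 0.623, n = 23). In the jejunum r was 0.403 and rho 0.285 (adjusted permutation p = 0.0489 and 0.207, n = 38). With the mitochondrial ribosomal RNAs mt-Rnr1 and mt-Rnr2, r was 0.123 and 0.096 in experiment 1, −0.5 and −0.462 in experiment 2, 0.823 and 0.611 in experiment 3, and 0.423 and 0.498 in the jejunum. The adjusted permutation p values were 0.845 and 0.853, 0.0536 and 0.0844, 0.0109 and 0.0489, and 0.0422 and 0.0139 for r. For rho, at 0.141 and 0.134, −0.461 and −0.421, 0.532 and 0.571, and 0.374 and 0.415, none was below 0.05, with 0.0673 the lowest. Without the 2 farthest libraries, r in experiment 3 was 0.48 and 0.422, and in the jejunum 0.187 and 0.277. Here too the permutations made no allowance for the means removed, so the p values are somewhat too small. Residual degrees of freedom were 11 in experiment 3 and 30 in the jejunum. The companion genes were chosen after Lars2 was seen, and the part of CT010467.1 or other ribosomal RNA in the Lars2 values was not tested.

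Members moved together across animals in some experiments and not in others. The median pairwise r among cytosolic members, after group and batch means were removed, was 0.598 in experiment 2, 0.47 in the jejunum, 0.138 in experiment 3 and 0.024 in experiment 1. Among mitochondrial members without Lars2 it was 0.339, 0.337, 0.348 and −0.147 in the same order. Over all gene pairs the median lay between −0.007 and −0.001. Pairs share their libraries, so these are descriptions. In experiment 1 the quartiles of the cytosolic pairs ran from −0.465 to 0.613. Aars, taken as a reference after the highest pairs were seen, was positive with 20 and negative with 19 of the other 39 members there, from −0.87 with Rars2 to 0.961 with Vars2.

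Aars and Rars2 also followed the TMM factor in experiment 1, at r = 0.695 (rho 0.611) and r = −0.737 (rho −0.635), with adjusted permutation p = 0.00706 and 0.00399 for r and 0.0481 and 0.0352 for rho (n = 20). Both r values, 0.493 and −0.513, were smaller without the 2 libraries of most extreme factor. Of the other members tried there, Vars (r = 0.685) followed it by r and rho (adjusted permutation p = 0.00876 and 0.0311). Kars (r = 0.598) and Eprs (r = −0.66) followed it by r, with adjusted permutation p for rho of 0.0892 and 0.0673. Lars2 was at r = −0.031. Rars2 was at r = −0.59, −0.684 and −0.342 in experiments 2, 3 and the jejunum (adjusted permutation p = 0.02, 0.0211 and 0.0996). Lars2 in the jejunum was at r = −0.539 (adjusted permutation p = 0.00913 for r, 0.0873 for rho). With the log2 factor as a covariate, added after these relations were seen, edgeR called 0 members in experiment 1. CPM is itself scaled by the TMM factor, which is estimated from the same counts, so level and factor are linked by construction. The permutations allowed neither for that link nor for the means removed. Among Aars, Iars, Tars and Yars, the 4 members whose windows hold TGATGCAA, the median pairwise r was 0.702 in experiment 2, 0.556 in the jejunum, 0.198 in experiment 3 and −0.05 in experiment 1. Cytosolic members paired with the list of ATF4 targets had a median r of 0.18 in the jejunum (347 of 504 pairs positive), and of −0.017, −0.02 and −0.013 in experiments 1, 2 and 3. Atf4 itself was positive with 29 of the 40 members in the jejunum, where 49% of all genes were, and with 19, 11 and 33 of 40 in experiments 1, 2 and 3. The shares of all genes positive with Atf4 in those hearts were 51.8%, 48.8% and 44.3%. Asns, asparagine synthetase and a target on that list, was chosen after its values were seen. It was positive with 37 of 40 members in the jejunum, where 49.9% of all genes were, and with 12, 4 and 14 of 40 in experiments 1, 2 and 3. The shares of all genes positive with Asns in those hearts were 50.8%, 49% and 52.2%. Asns was low in the hearts, at 1.32 to 6.14 CPM, and at 9.51 to 32.6 CPM in the jejunum. For those 4 members naproxen minus celecoxib in the jejunum was −0.14 for Aars, −0.11 for Iars, −0.21 for Tars and 0.04 for Yars on the log2 scale (edgeR adjusted p = 0.351, 0.508, 0.265 and 0.857).

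Some members share sequence with other genes, which can move counts between them. At 95% identity over 200 or more bases, Iars matched Gm4849, Iars2 matched Rab3gap2, Aimp2 matched Eif2ak1, Farsb matched Sgpp2 and Fars2 matched Nrn1, each in annotated transcripts. Aars, Cars, Cars2, Nars2 and Vars2 each matched 1 other gene, Eprs 12 and Yars 17. Lars2 matched none at that threshold. In a looser search of annotated transcripts, it matched AA474408 at 80.1% identity over 196 bases. No match to CT010467.1, mt-Rnr1 or mt-Rnr2 was found in that search. Whether reads are shared between Lars2 and these genes was not tested.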

How the data were processed

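Whole heart or jejunum RNA of 97 mice was measured. The authors deposited a table of estimated counts per gene, made with Salmon 1.9.0 and R 4.2.2 on GRCm38 per the submitters' processing notes; its index and options were not given in the sources used here. Values were rounded to whole counts, since 24.7% of the deposited ones were not whole. edgeR 4.0.16 (R 4.3.3) tested each comparison with filterByExpr (minimum count 10), TMM scaling and Benjamini-Hochberg adjustment over all genes tested; fits of experiments 3 and 4 also held a term for the labelled dissection batch. Log2 CPM used a prior count of 2. Alternatives were DESeq2 1.42.0, limma 3.58.1 voom, other scalings, no filter, fewer groups, the replicate number as a block, and each library left out; covariate fits for depth and TMM factor were added after the data were seen. Correlations used 100000 permutations (numpy 2.4.6, scipy 1.17.1, Python 3.11.15), and shared transcript sequence BLAST+ 2.17.0. The permutations made no allowance for the group and batch means removed beforehand, so their p values are somewhat too small. Scripts were tested on simulated data.

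The members and gene lists were chosen with earlier results of these data known. Named with full values were Wars and Wars2, any member called (none was), and the 3 members of smallest unadjusted p in each tissue: Yars2, Aimp2 and Eef1e1 in heart, Kars, Qars and Hars in jejunum. The rule's wording, to 6 in all, was read as 6 beside the tryptophanyl enzymes. Iars, Iars2 and Lars2 were added after their values were seen. 1 member is counted but not reported by name. No column was left unmapped, and no libraries held identical values. Levels are per kilobase of the longest APPRIS principal transcript, a length chosen after merged exons had been tried. The 84 relations adjusted together include all 48 of single members with the library total or TMM factor that were looked at.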

Additional observations from a re-analysis of the deposited data

Results flagged for a closer look

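Each set examined held the values of a named member, or of the cytosolic-minus-mitochondrial balance, in a group of 5 to 8 animals. Of 140 such sets, 10 held an animal far from the rest of its group, where chance alone gives about 1 in 20. The sets share libraries. Lars2 accounted for 4: 499 CPM in a heart given naproxen with tryptophan in experiment 2 (nearest other animal 331 CPM), 2270 CPM in a control heart of experiment 3 (1220 CPM), 153 CPM in a control jejunum (103 CPM) and 410 CPM in a jejunum given naproxen with tryptophan (154 CPM). Hars accounted for 2: 25.8 CPM in a control male heart of experiment 1 (23.1 CPM) and 22.8 CPM in a naproxen heart of experiment 2 (24.6 CPM). Eef1e1 was at 4.56 CPM in a naproxen jejunum (9.7 CPM). Qars was at 42.9 CPM in a control heart of experiment 3 (46 CPM). Wars was at 47.6 CPM in a control heart of experiment 2 (36 CPM), and Wars2 at 5.46 CPM in a control female heart of experiment 1 (7.13 CPM).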

How the results depend on the processing

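Of 129 pairs of a comparison and an alternative setting, 122 gave 0 members called, as in the edgeR fits reported, and 7 gave some. DESeq2 called 2 (Yars2 and Aimp2) for naproxen with tryptophan in experiment 2 hearts and 2 (Kars and Qars) for naproxen minus celecoxib in jejunum, where limma voom called 1 (Kars), among 477, 291 and 1 genes in all. Without the low-count filter edgeR called 1 (Lars2) for naproxen, 1 (Lars2) for naproxen with tryptophan and 3 (Lars2, Kars and Farsb) for naproxen minus celecoxib, among 1182, 476 and 1784 genes in all. The library total as a covariate, added after seeing the data, gave 2 (Kars and Qars) in the last. With each library left out, members called ran from 0 to 3 for naproxen minus celecoxib and stayed at 0 in the other 15 comparisons. Of 1018 single-member values over 42 member-comparison pairs, 1000 kept direction and side of the threshold, 17 passed it anew and 1 changed sign: Iars2 in experiment 1 males, at −0.02 with library totals. With merged exons as length the mean within-animal ratio of the cytosolic to the mitochondrial median moved to 2.74 and 3.07 in females and males of experiment 1, 2.02 in experiment 3 and 3.3 in jejunum. The causes were not tested. Replicate numbers were not taken as pairs. With group means removed and batch means kept, same-numbered animals of different groups had a median r of 0.00153, 0.0435, 0.148 and 0.0724 in experiments 1 to 4. For differently numbered animals it was 0.00117, 0.0127, −0.0199 and −0.0158. In experiment 4, 31 of 73 same-numbered pairs were above 0.1, with 0.681 the highest. Whether the numbers mark something shared was not tested. With the replicate block 0 members were called. Jejunum libraries held 10.1 to 28.5 units of 1000000 counts, which limits the lowest members most.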
